A study of Rattus norvegicus with 47 samples.

Results

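The 38 genes described here form the core machinery of DNA replication and nucleotide supply: origin licensing factors, the MCM helicase and its activators, polymerases and primase, the sliding clamp with its loader and partners, chromatin assembly factors, enzymes that make deoxynucleotides, and the transcription factor gene E2f1. They were taken by gene name from a list drawn up by function, with earlier results of these data known. They are 38 of the 30045 gene lines in each deposited table. The genes were followed in lung and in whole blood. The animals were male Fischer 344 rats, an inbred strain, called healthy in the labels, studied after whole-body inhalation of filtered air or of crystalline silica dust (Min-U-Sil 5, a fine quartz powder) at 15 mg/m3. Exposure lasted 6 hours per day for 5 days, and tissue was taken 1 day or 6 months afterwards. Each of the 8 groups of tissue, time and treatment held 6 libraries, except air lung at 6 months with 5, for 47 libraries in all. The libraries of a group carry different numbers in their titles, and no label says that each came from its own rat, so p-values measure the spread between these libraries. The air rats, exposed on the same schedule without dust, are the controls. The rats were housed in pairs, and the labels used here do not tie a library to a cage or exposure chamber, so treatment and chamber cannot be told apart. The labels give no age.

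Before a cell divides, the origin recognition complex with Cdc6 and Cdt1 loads the ring of Mcm2 to Mcm7 onto DNA. Kinases then turn the ring into a working helicase with Cdc45 and the GINS complex, and polymerases held on DNA by the Pcna clamp copy the strands from deoxynucleotides supplied by ribonucleotide reductase, thymidine kinase and thymidylate synthase. E2F transcription factors switch many of these genes on as cells leave rest, and in the adult lung few cells are in cycle at any time.

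RNA was read as stranded libraries of polyadenylated RNA, with globin RNA depleted from blood. Libraries held 12050267 to 25875985 estimated counts in lung and 9643527 to 19272859 in blood. Levels below are in CPM, counts scaled to a common library size within 1 table, so a value set across tissues or times rests on tables normalised separately, and CPM values do not rank 1 gene against another. The median correlation of a library with the others of its group was 0.969 to 0.981. Transcripts of Sftpc, the surfactant gene of alveolar type 2 cells, reached at most 1 count in a blood library, and those of Gata1, an erythroid regulator, were at 0 in every lung library. These 2 genes do not stand for their lists. The alveolar type 2 markers summed to 179 to 255 CPM in blood libraries, and the erythroid markers to 122 to 160 CPM in lung libraries. Globin genes made up 2.07 to 6.76% of the counts of blood libraries and 0.343 to 0.707% of those of lung libraries. At 1 day their share in lung was 0.449 to 0.601% in air and 0.343 to 0.450% in silica libraries. The heart muscle genes Myh6, Myl7 and Tnnt2 summed unevenly to 0.686 to 285 CPM in lung. Bulk RNA gives 1 value for a whole tissue, so more cells in cycle and more RNA per cell cannot be told apart. A gene is said to have risen or fallen where the edgeR quasi-likelihood test, adjusted by Benjamini-Hochberg over all genes tested in that comparison, gave p under 0.05.

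In lung 1 day after exposure, 28 of the 38 genes rose and 0 fell, against 8.39% of all 15331 genes tested that rose. The log2 fold change was above 0 for 36 of the 38, with a median of 0.44, beside a median of -0.00 over all genes. In 21 of the 38 every silica library was above every air library, which held for 5.04% of all genes. Summed over the 38 genes, the air lungs held 439 to 478 CPM (mean 459 ± 14.2, SD, n = 6) and the silica lungs 569 to 618 (590 ± 18.1, n = 6), a ratio of 1.29 with no overlap between the groups. The rise ran through almost every step of replication: 3 of 3 licensing genes, 6 of 6 MCM ring genes, 6 of 7 helicase activation and firing genes, 3 of 5 polymerase and primase genes, 3 of 8 clamp, loader and joining genes, 3 of 3 chromatin genes and 4 of 5 nucleotide genes. With a minimum count of 50 in place of 10, 29 of the genes were tested, 20 rose, and the median log2 fold change was 0.26.

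**Figure D1:**
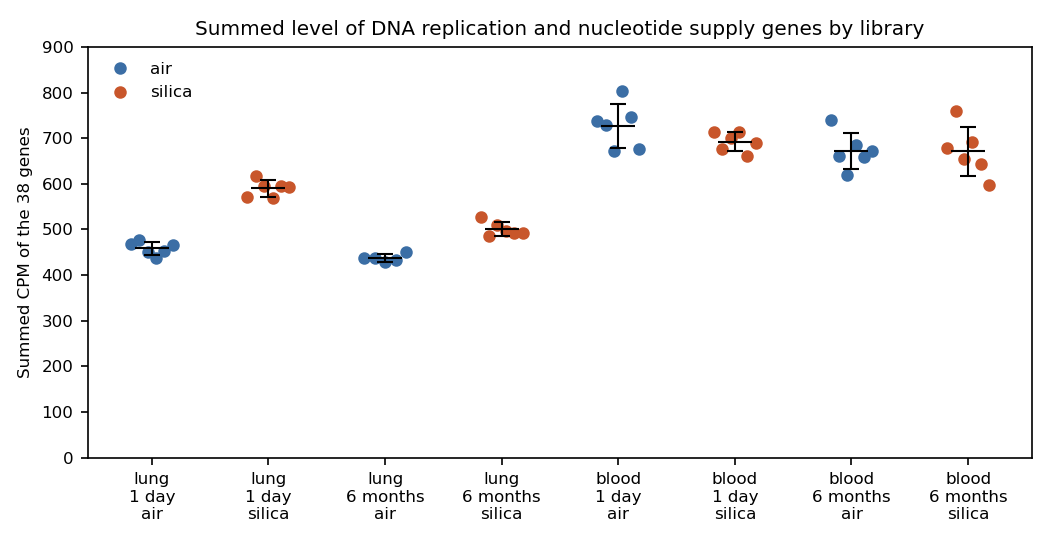
Summed CPM of the 38 replication and nucleotide genes (vertical axis, from 0) in each library of the 8 groups, with the mean ± SD of each group. In lung the silica libraries lie above all air libraries at 1 day (569 to 618 against 439 to 478) and at 6 months (486 to 527 against 428 to 451), while in blood the groups overlap at both times.

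The licensing genes rose 3 of 3, with the highest folds of the list in Orc1 and Cdc6, which both rest on few reads. Across the 38 genes the fold change was larger where the air level was lower. Pearson's r was -0.630 and Spearman's rho -0.599, a description over genes that share libraries. Cdc6 had 7 to 25 counts per air library and 33 to 44 per silica library. Cdc6, which loads the helicase ring at origins, was at 0.578 to 1.62 CPM (median 0.862) in air and at 2.35 to 2.99 (median 2.58) in silica lungs. Every silica library was above every air library, a 2.68-fold rise (SE 0.20 on the log2 scale, edgeR adjusted p = 0.00034). Cdt1, its partner in loading, ranged from 2.97 to 4.49 CPM (median 3.86) in air and from 5.82 to 7.05 (median 6.57) after silica. Here too the groups did not overlap, and the fold was 1.67 (log2 0.74, SE 0.11, edgeR adjusted p = 0.00033). The third licensing gene, Orc1, a subunit of the origin recognition complex, rose 2.82-fold (SE 0.27 on the log2 scale, edgeR adjusted p = 0.0017), but on few reads, 3 to 21 counts per air library and 22 to 34 per silica library.

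The 6 genes of the MCM ring all rose, by log2 0.18 to 1.24, and Mcm5 stood at the top of that range. Mcm5 was at 5.03 to 8.62 CPM (median 6.77) in air lungs and at 14.7 to 18.6 (median 16.9) in silica lungs. The highest air library was well under the lowest silica library, and the rise was 2.35-fold (log2 1.24, SE 0.12, edgeR adjusted p = 1.1e-05). For Mcm3 the air range was 11.1 to 13.1 CPM (median 12.1) and the silica range 15.9 to 19.2 (median 18.0), a rise without overlap (log2 0.56, SE 0.062, edgeR adjusted p = 3.2e-05). Mcm2 lay between 19.3 and 24.2 CPM (median 20.9) in air and between 26.2 and 32.1 (median 29.9) after silica, higher and again without overlap (log2 0.47, SE 0.064, edgeR adjusted p = 0.00020). Mcm4 and Mcm6 rose by log2 0.42 and 0.59, also with every silica library above every air library. Mcm7 rose least of the ring, 1.13-fold (SE 0.052 on the log2 scale, edgeR adjusted p = 0.031), with 4 of 6 silica libraries above all air libraries. Its call was lost without any 1 of the air libraries 37, 38, 39 or 40 or the silica libraries 44, 47 or 48, with adjusted p up to 0.072. The 6 subunits enter the ring in equal numbers, and their RNAs rose by unequal amounts. Summed over the ring genes, mean CPM went from 121 in air to 166 in silica lungs.

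Promoter windows from RefSeq (build GRCr8, which is not the build of the deposited counts) were matched for 32 of the 38 genes. They are shown to mark letters of the E2F type. The windows ran from 250 bases before to 50 after the annotated start, and were searched on both strands for TTTCCCGC, TTTCGCGC, TTTGCCGC and TTTGGCGC, matches of which can overlap. The 32 genes had 35 windows, and 15 genes held at least 1 match in any of theirs, against 2.14% of the 33469 windows of the same length. By response, 12 of the 23 matched genes that rose in lung at 1 day held 1, and 3 of the 9 matched genes that were not called. CCAAT, the letters of the CCAAT box, was in 19 of the 32, against 37.5% of all windows. In the stretches below, written 5′ to 3′ on the gene's strand, capitals mark the E2F-type letters. They are Mcm5 (chr19:13488563-13488812 on the plus strand), Mcm2 (chr4:122918095-122918194 on the minus strand), Mcm6 (chr13:42404353-42404502 on the minus strand) and Gins1 (chr3:160184820-160184919 on the plus strand), all of which rose in lung at 1 day and were picked for holding matches, and Gins3 (chr19:9434680-9434779 on the minus strand) and Rfc5 (chr12:44868222-44868321 on the plus strand), which were not called.
Mcm5: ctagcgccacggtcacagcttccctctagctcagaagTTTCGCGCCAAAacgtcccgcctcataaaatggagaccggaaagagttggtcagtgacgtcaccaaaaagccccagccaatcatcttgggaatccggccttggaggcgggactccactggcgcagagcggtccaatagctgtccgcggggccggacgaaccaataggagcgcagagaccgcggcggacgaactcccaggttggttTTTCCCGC
Mcm2: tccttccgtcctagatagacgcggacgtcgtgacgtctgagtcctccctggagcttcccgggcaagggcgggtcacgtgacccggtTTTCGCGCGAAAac
Mcm6: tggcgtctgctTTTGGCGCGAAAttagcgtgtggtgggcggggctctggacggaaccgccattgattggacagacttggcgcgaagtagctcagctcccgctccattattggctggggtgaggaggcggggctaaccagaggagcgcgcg
Gins1: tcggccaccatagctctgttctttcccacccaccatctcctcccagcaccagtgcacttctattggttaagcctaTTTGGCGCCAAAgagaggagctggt
Gins3: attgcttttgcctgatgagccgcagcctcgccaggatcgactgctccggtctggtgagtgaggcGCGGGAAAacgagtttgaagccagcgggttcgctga
Rfc5: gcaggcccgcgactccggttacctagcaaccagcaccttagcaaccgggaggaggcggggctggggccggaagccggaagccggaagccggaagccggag
The Mcm5 stretch holds 3 matches, those of Mcm2, Mcm6 and Gins1 hold 2 each, on opposite strands of 1 block, Gins3 holds 1 and Rfc5 none of these letters. Of the 23 that rose, 11 hold none, and Rfc3, not called, holds 2 matches. A match describes the letters only. No window was matched for Rrm2, Mcm4, Orc1, E2f1, Gins4 and Cdc6.

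Among the 7 genes of helicase activation and origin firing, 6 rose, by log2 0.44 to 0.81. Cdc45, a part of the working helicase, was at 1.45 to 2.33 CPM (median 1.98) in air lungs and at 2.81 to 3.39 (median 2.98) in silica lungs. The groups were apart and the rise was 1.55-fold (log2 0.63, SE 0.13, edgeR adjusted p = 0.0036). Gins4, a GINS subunit, went from 3.31 to 4.37 CPM in air (median 3.47) to 4.87 to 5.94 in silica (median 5.30). Every silica library was above every air library (log2 0.52, SE 0.10, edgeR adjusted p = 0.0038). Gins1 and Gins2 rose 1.75-fold and 1.61-fold, Mcm10, which helps to start the helicase, 1.68-fold, and Cdc7, the kinase that fires origins, 1.35-fold. The Cdc7 call was the least stable, with adjusted p 0.044 in edgeR and up to 0.10 without 1 library. It was lost without air libraries 37, 38, 40, 41 or 42 or silica libraries 44, 45, 46 or 48, and also with DESeq2, without the low-count filter and with a surrogate variable. The fourth GINS gene, Gins3, was at 1.49 to 2.89 CPM in air and 2.07 to 2.95 in silica lungs (log2 0.04, 95% interval -0.32 to 0.40, edgeR adjusted p = 0.91), so the genes of 1 complex gave different values.

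Polymerase and primase genes changed less. Pole, the catalytic subunit of the leading-strand polymerase, was the exception: 4.88 to 5.84 CPM (median 5.18) in air and 6.94 to 10.1 (median 8.21) in silica lungs. All silica libraries exceeded all air libraries, at 1.61-fold (log2 0.68, SE 0.095, edgeR adjusted p = 0.00025). Prim1, the primase that lays the RNA primer, ranged from 11.5 to 13.4 CPM (median 12.3) in air and from 13.4 to 16.6 (median 14.7) after silica. The ranges met, with 5 of 6 silica libraries above all air libraries, and the rise was 1.19-fold (log2 0.26, SE 0.067, edgeR adjusted p = 0.020). Pola1, the polymerase joined to primase, rose 1.16-fold (edgeR adjusted p = 0.034). Prim1 lost its call without air library 42 or silica library 44 (adjusted p up to 0.054). The Pola1 call was lost without air libraries 38, 39, 40 or 41, without silica libraries 44, 45, 46 or 47, and without the low-count filter, with adjusted p up to 0.081 when 1 library was left out. Pold1, the catalytic subunit of the lagging-strand polymerase, had log2 0.14 (95% interval 0.01 to 0.26, edgeR adjusted p = 0.14), and Prim2, the larger primase subunit, 0.08 (-0.09 to 0.24, adjusted p = 0.59).

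In the clamp, loader and joining group 3 of 8 genes rose. Pcna, the sliding clamp, was at 53.1 to 61.2 CPM (median 59.4) in air and 64.3 to 74.2 (median 69.0) in silica lungs. The silica libraries were all above the air libraries although the fold was small, 1.17 (log2 0.23, SE 0.042, edgeR adjusted p = 0.0020). Fen1, the flap nuclease that trims Okazaki fragments, went from 7.67 to 10.2 CPM (median 8.09) to 11.2 to 12.3 (median 11.8), 1.36-fold without overlap (log2 0.44, SE 0.085, edgeR adjusted p = 0.0029). Lig1, the ligase that seals them, rose 1.14-fold (edgeR adjusted p = 0.014). The other 5 genes did not pass the test: the clamp loader subunits Rfc2, Rfc3, Rfc4 and Rfc5 had log2 0.11, 0.04, 0.23 and -0.01, and Rpa2, a subunit of the single-strand binding protein, 0.09. The widest of their 95% intervals, that of Rfc4, ran from -0.03 to 0.50.

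Genes that rebuild chromatin behind the fork rose 3 of 3. Uhrf1, which brings the maintenance DNA methyltransferase to new DNA, was at 2.23 to 4.05 CPM (median 3.01) in air and at 5.90 to 7.46 (median 6.87) in silica lungs. No silica library reached down to the air range, and the rise was 2.22-fold (log2 1.15, SE 0.13, edgeR adjusted p = 3.1e-05). Chaf1b, a subunit of chromatin assembly factor 1, was at 0.330 to 1.31 CPM (median 0.824) in air and 1.84 to 2.56 (median 1.99) after silica, on 4 to 25 and 25 to 37 counts. Its groups were also apart, at 2.53-fold (log2 1.34, SE 0.23, edgeR adjusted p = 0.0014). Chaf1a, the large subunit, rose 1.45-fold.

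Nucleotide supply divided by enzyme. Rrm2, the small subunit of ribonucleotide reductase that is made mainly in S phase, was at 7.92 to 14.3 CPM (median 11.4) in air and at 23.9 to 28.5 (median 27.3) in silica lungs. The groups were far apart, at 2.46-fold (log2 1.30, SE 0.12, edgeR adjusted p = 6.0e-06). Tk1, the cytosolic thymidine kinase that salvages thymidine, went from 5.63 to 7.13 CPM (median 5.76) to 10.4 to 13.3 (median 12.1), with every silica library above every air library. That was 1.99-fold (log2 1.00, SE 0.083), with the smallest adjusted p of the 38 genes (edgeR, 3.5e-06). Tyms, the thymidylate synthase that makes the same product from scratch, lay between 7.59 and 10.02 CPM (median 8.204) in air and between 9.56 and 12.8 (median 11.4) after silica. Its ranges overlapped, with 4 of 6 silica libraries above all air libraries, and the rise was 1.29-fold (log2 0.37, SE 0.097, edgeR adjusted p = 0.019). Rrm1, the large reductase subunit, rose 1.19-fold. Dut, which breaks down dUTP, was at 15.2 to 17.9 CPM in air and 14.6 to 18.5 in silica lungs (log2 -0.03, 95% interval -0.18 to 0.12, edgeR adjusted p = 0.82).

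E2f1, the transcription factor gene of the list, was at 9.49 to 11.6 CPM (median 10.6) in air lungs and at 11.1 to 14.3 (median 12.0) in silica lungs at 1 day. The ranges overlapped, with 4 of 6 silica libraries above all air libraries, and it did not pass (log2 0.23, SE 0.084, 95% interval 0.05 to 0.41, edgeR adjusted p = 0.082). In a fit of all 4 lung groups together it did pass, with adjusted p = 0.043. Of the 28 calls at this time, 24 held without each library in turn and under every alternative in which the gene was tested, apart from the test against a 1.5-fold change. The exceptions were Mcm7, Cdc7, Pola1 and Prim1.

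**Figure D2:**
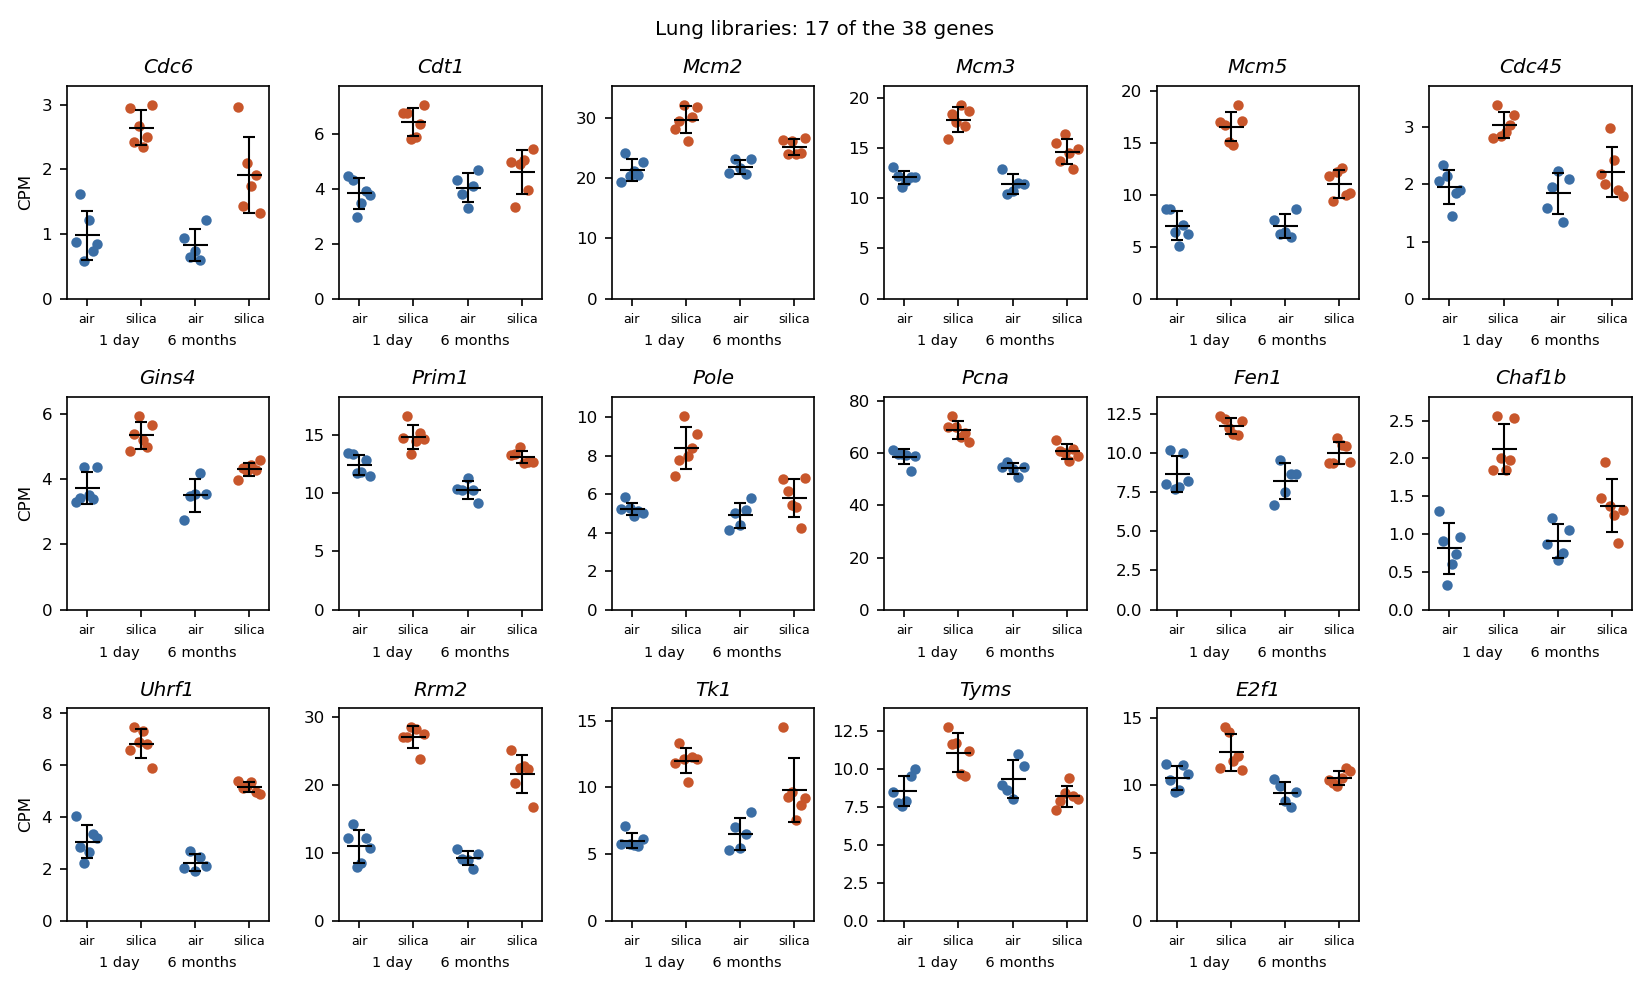
CPM of 17 of the genes in every lung library, air in blue and silica in orange, at 1 day and 6 months, each panel with its own axis from 0, points for libraries and mean ± SD. Rrm2, Mcm5, Uhrf1 and Cdc6 show separate air and silica points at both times, while Tyms rose at 1 day and did not pass the test at 6 months.

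At 6 months after exposure, 13 of the 38 genes rose in lung and 0 fell, against 9.84% of all 15309 genes tested that rose. The share of all genes that rose depended on the scaling, at 8.18% with library totals alone, and the rises were 60.7% of all calls with scaling factors and 43.7% without. Log2 fold changes were above 0 for 33 of the 38, with a median of 0.22 beside -0.01 over all genes. In 9 of the 38 every silica library was above every air library, against 6.96% of all genes. Summed CPM was 428 to 451 in the air lungs (mean 438 ± 8.56, n = 5) and 486 to 527 in the silica lungs (501 ± 15.3, n = 6), a ratio of 1.14 with no overlap, or 1.12 by library totals alone. By role the genes that rose were 1 of 3 licensing genes, 5 of 6 MCM genes, 2 of 7 firing genes, 1 of 5 polymerase and primase genes, 1 of 8 clamp and joining genes, 1 of 3 chromatin genes and 2 of 5 nucleotide genes.

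Rrm2 and Uhrf1 had the lowest adjusted p values at 6 months. Rrm2 was at 10.6, 9.17, 9.01, 7.65 and 9.76 CPM in the 5 air lungs and at 16.8 to 25.1 (median 22.4) in the 6 silica lungs. The lowest silica library was above the highest air library, a 2.34-fold rise (log2 1.23, SE 0.11, edgeR adjusted p = 3.2e-05). Uhrf1 was at 2.02, 2.68, 1.90, 2.47 and 2.10 CPM in air and at 4.90 to 5.38 (median 5.17) after silica. The silica libraries formed a narrow band above the air libraries, at 2.30-fold (log2 1.20, SE 0.11, edgeR adjusted p = 5.4e-05). Gins1, a GINS subunit, stood at 1.372, 1.05, 1.32, 0.975 and 1.86 CPM in air and at 2.33 to 3.45 (median 2.81) in silica lungs. Its groups did not overlap and the rise was 2.18-fold (log2 1.12, SE 0.18, edgeR adjusted p = 0.0013), on 13 to 23 and 30 to 67 counts.

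The MCM ring was still up except for Mcm7 (log2 -0.02, edgeR adjusted p = 0.77). Mcm5 was at 7.58, 6.25, 6.45, 5.92 and 8.63 CPM in the air lungs and at 9.43 to 12.5 (median 10.9) in the silica lungs. All silica libraries were above all air libraries, at 1.58-fold (log2 0.66, SE 0.12, edgeR adjusted p = 0.0028). Mcm2 was at 20.8, 23.1, 21.7, 20.7 and 23.1 CPM in air and 24.0 to 26.6 (median 25.2) after silica, a rise of 1.15-fold without overlap (log2 0.20, SE 0.051, edgeR adjusted p = 0.019). Mcm3, Mcm4 and Mcm6 rose 1.28-fold, 1.12-fold and 1.30-fold. Mcm2 lost its call without air library 49 or 53, and Mcm4 without air library 49 or silica library 60, each with adjusted p up to 0.051.

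Cdc6 rose 2.28-fold at 6 months (SE 0.26 on the log2 scale, edgeR adjusted p = 0.0077), while the other licensing genes did not pass, with log2 0.71 for Orc1 (adjusted p = 0.15) and 0.18 for Cdt1 (0.43). The Cdc6 rise rests on 8 to 15 counts per air library and 17 to 38 per silica library. Mcm10 rose 1.73-fold and Prim1 1.27-fold. Pcna was at 54.7, 56.8, 53.9, 51.0 and 54.6 CPM in air and at 57.2 to 65.3 (median 60.6) in silica lungs. The groups were close but did not overlap, at 1.12-fold (log2 0.16, SE 0.041, edgeR adjusted p = 0.016). Genes that rose at 1 day and did not pass at 6 months included Pole (log2 0.24, edgeR adjusted p = 0.27), Fen1 (0.29, 0.064), Chaf1b (0.60, 0.11) and Gins4 (0.30, 0.090).

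The thymidine enzymes parted at 6 months. Tk1 was at 5.27, 7.06, 5.45, 6.522 and 8.15 CPM in air lungs and at 7.55 to 14.5 (median 9.23) in silica lungs. The ranges overlapped, with 5 of 6 silica libraries above all air libraries, and the rise was 1.51-fold (log2 0.59, SE 0.17, edgeR adjusted p = 0.029). Without air libraries 49, 52 or 53 or silica library 60 the call was lost, with adjusted p up to 0.073. Tyms was at 8.96, 8.60, 8.02, 11.02 and 10.2 CPM in air and at 7.33 to 9.42 (median 8.13) after silica. No silica library was above the air range and the difference did not pass (log2 -0.19, 95% interval -0.40 to 0.03, edgeR adjusted p = 0.22). E2f1 was at 10.5, 9.98, 8.84, 8.40 and 9.52 CPM in air and at 9.94 to 11.3 (median 10.5) after silica, with overlap and without a call (log2 0.16, edgeR adjusted p = 0.17).

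**Figure D3:**
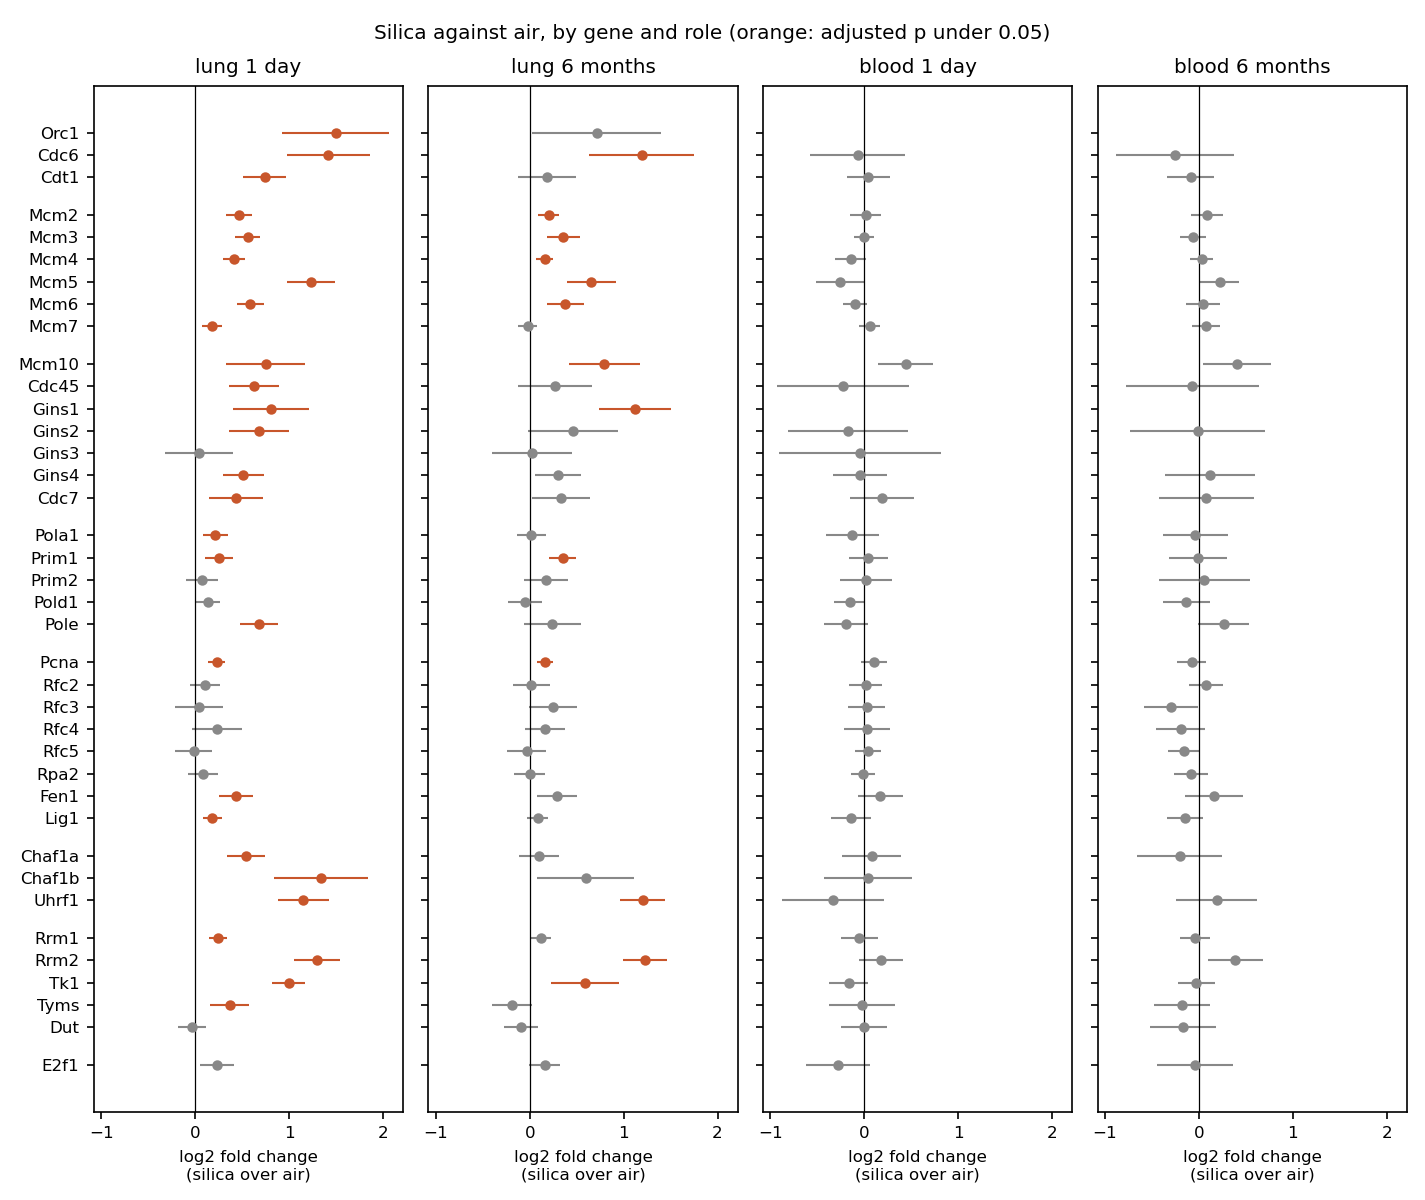
Log2 fold change of silica over air with its 95% interval for each of the 38 genes, grouped by role, in lung and blood at 1 day and 6 months. Orange marks adjusted p under 0.05: 28 genes in lung at 1 day, 13 in lung at 6 months and 0 in blood at either time.

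All 13 genes that rose in lung at 6 months were among the 28 that rose at 1 day, 15 rose at 1 day only by the test, and 10 were called at neither time. The air groups of the times are separate animals. For 32 of the 38 genes the log2 fold change was smaller at 6 months. Across the 38 genes the fold changes at the times had Pearson's r 0.831 and Spearman's rho 0.842, a description over genes that share libraries. The change of effect with time, tested as an interaction, passed for 1 of the 38 genes, Tyms, against 0.253% of all 15786 genes tested with a lower effect at 6 months. Of all such calls 81.6% were toward a higher effect at 6 months, or 68.3% with library totals alone. For Tyms the 6-month effect was lower than the 1-day effect by a log2 difference of -0.55 (SE 0.14, edgeR adjusted p = 0.042), but the call was kept only when the library left out was number 41, 42, 46, 47, 51, 52 or 61. It was lost without any 1 of the other 16 of the 23 lung libraries, and adjusted p over all 23 ran from 0.023 to 0.099. The next smallest adjusted p values were those of Mcm4 (log2 difference -0.25, adjusted p = 0.069), Mcm5 (-0.57, 0.11), Chaf1a (-0.44, 0.12) and Cdt1 (-0.56, 0.12), so a smaller rise at 6 months was not shown gene by gene.

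**Figure D4:**
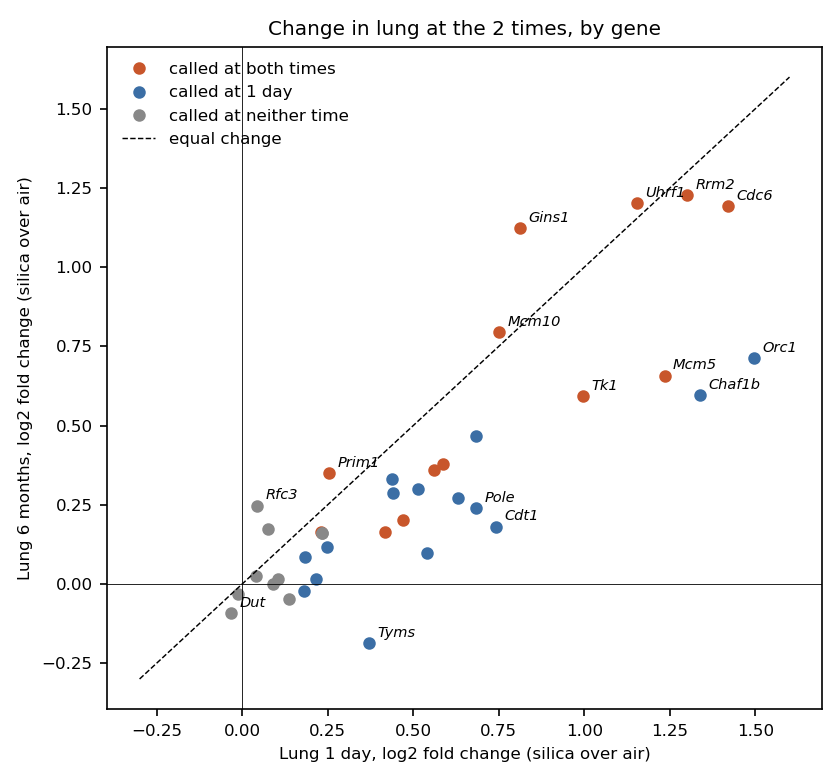
Log2 fold change of silica over air in lung at 1 day (horizontal) and 6 months (vertical), 1 point per gene, with a dashed line of equal change. Most of the 38 points lie below the line, and Rrm2, Uhrf1, Cdc6 and Gins1 are the 4 highest points on the vertical axis.

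In blood none of the genes was called. At 1 day 36 of the 38 were tested and 0 passed, against 1.19% of all 12253 genes higher and 0.18% lower in edgeR. DESeq2 also called 0, and 1 gene had an unadjusted p under 0.05. The median log2 fold change was -0.01, with 17 of 36 above 0. Summed CPM was 671 to 803 in air (mean 727 ± 48.8, n = 6) and 662 to 714 after silica (692 ± 20.9, n = 6), overlapping groups with a ratio of 0.952. The gene with the low unadjusted p was Mcm10, at 1.62 to 2.33 CPM (median 1.73) in air and 2.13 to 3.03 (median 2.57) after silica. In 4 of 6 silica libraries it was above the air range (log2 0.44, 95% interval 0.15 to 0.73, edgeR adjusted p = 0.16). Orc1 and Gins1 were too low to test, at 3 to 13 and 5 to 12 counts per air library.

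Other genes followed in blood at 1 day did not pass either. Cdc6 (95% interval of the log2 fold change -0.58 to 0.43) and Chaf1b (-0.43 to 0.51), among the larger folds in lung, had 7 to 28 counts per blood library, which leaves wide intervals. Mcm5 was at 9.24 to 12.8 CPM (median 10.8) in air and 6.97 to 10.8 (median 9.23) after silica blood, overlapping, with log2 -0.26 (95% interval -0.52 to 0.01, edgeR adjusted p = 0.40). Rrm2 was at 20.8 to 28.6 CPM (median 24.2) and 23.2 to 35.2 (median 25.8), also overlapping (log2 0.18, SE 0.11, edgeR adjusted p = 0.54). Tk1 lay at 242 to 379 CPM (median 293) in air and 242 to 298 (median 263) after silica, with overlap (log2 -0.17, 95% interval -0.37 to 0.04, edgeR adjusted p = 0.52). Mcm2 had nearly the same range in both groups, 20.5 to 28.2 CPM (median 23.8) and 20.9 to 28.2 (median 23.9), with log2 0.02 (95% interval -0.15 to 0.18, edgeR adjusted p = 0.97). Pcna was at 33.9 to 38.2 CPM (median 36.0) and 34.8 to 46.7 (median 37.3), the groups overlapping and the silica library 46 standing high (log2 0.10, edgeR adjusted p = 0.56). Mcm4 (log2 -0.15), Pold1 (-0.16), Tyms (-0.02) and E2f1 (-0.28) likewise did not pass, with edgeR adjusted p from 0.43 to 0.97.

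At 6 months 34 of the 38 genes were tested in blood, Orc1, Gins1, Gins3 and Chaf1b being too low, and 0 passed, against 0.0086% of all 11629 genes called. By DESeq2 the count was also 0. The median log2 fold change was -0.03, with 14 of 34 above 0, and 4 genes had an unadjusted p under 0.05: Rrm2, Mcm10, Mcm5 and Rfc3. Rrm2 was at 27.1 to 35.9 CPM (median 32.7) in air and 30.3 to 57.7 (median 40.4) after silica, with overlap (log2 0.39, 95% interval 0.09 to 0.68, edgeR adjusted p = 0.54). Mcm10 was at 2.13 to 2.57 CPM (median 2.35) and 2.14 to 4.14 (median 3.06), its lowest silica library inside the air range (log2 0.41, SE 0.17, edgeR adjusted p = 0.55). Mcm5 was at 5.57 to 7.09 CPM (median 6.38) and 6.32 to 8.69 (median 7.37), and Rfc3 at 4.39 to 6.32 (median 4.96) and 3.25 to 5.17 (median 4.18), both overlapping (log2 0.22 and -0.30, edgeR adjusted p = 0.56 each). The remaining genes named above for lung, Mcm2, Pcna, Tk1, Tyms and E2f1, had log2 0.09, -0.08, -0.03, -0.18 and -0.04. Summed CPM was 619 to 739 in air (mean 673 ± 39.3, n = 6) and 598 to 760 after silica (671 ± 54.4, n = 6), a ratio of 0.998. Of this, Tk1 alone gave a mean of 365 CPM in air and 359 after silica. As an interaction with time, 0 of 37 genes passed in blood, as did 0% of all 12444 genes in edgeR, although 1326 of them had an unadjusted p under 0.05. The smallest adjusted p among the 37 was that of Mcm5 (log2 difference 0.49, adjusted p = 0.21).

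The silica effect was then compared between the tissues in 1 model. At 1 day it differed for 12 of the 38 genes, and for all 12 it was lower in blood than in lung, against 2.05% of all 15989 genes tested. Mcm5 had a log2 difference, blood minus lung, of -1.45 (SE 0.18, edgeR adjusted p = 1.6e-05), the smallest p of the 12. Tk1 followed with -1.11 (SE 0.14, edgeR adjusted p = 2.3e-05), then Mcm6 with -0.64 (6.2e-05), Mcm3 with -0.52 (8.3e-05), Rrm2 with -1.08 (0.00030) and Pole with -0.83 (0.00091). The others were Mcm4 (-0.52), Uhrf1 (-1.45), Cdc6 (-1.45), Cdt1 (-0.65), Mcm2 (-0.41) and Chaf1b (-1.26), with adjusted p from 0.0023 to 0.027. Thus 5 of the 6 MCM ring genes were in this set. By library totals alone Cdt1 (0.064) and Mcm2 (0.12) were lost, and Chaf1b was lost without the silica lung library 48 (0.051). The title number as a replicate block also cost the calls of Cdt1 (edgeR adjusted p = 0.060) and Chaf1b (0.085).

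At 6 months the effect differed between the tissues for 4 of the 38 genes, again all lower in blood, against 2.53% of all 15790 genes tested. Of all such calls 28.4% were higher in blood, or 42.4% with library totals alone. The genes were Uhrf1 (log2 difference -0.99, SE 0.22, edgeR adjusted p = 0.014), Mcm3 (-0.39, 0.025), Rrm2 (-0.81, 0.025) and Cdc6 (-1.41, 0.050). With library totals alone only Uhrf1 of the 4 was called. With the title number as a replicate block, Uhrf1 (edgeR adjusted p = 0.17), Mcm3 (0.053) and Cdc6 (0.088) were lost. Mcm3 was lost without the air lung library 51 or 52 and Rrm2 without air lung library 53 (adjusted p = 0.063), while the Cdc6 call, kept without lung libraries 54, 59 or 64 or blood libraries 56, 58 or 60, was lost without any 1 of the other 17 of the 23 libraries (adjusted p 0.025 to 0.10 over all 23).

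In air rats at 1 day the same genes were compared between lung and blood, and this comparison turned on the scaling. With scaling factors 27 of 37 genes tested were lower and 4 higher in lung, against 38.2% and 50.4% of all 15260 genes. With library totals alone 9 were lower and 16 higher, as the median log2 difference of all genes, lung minus blood, moved from 0.22 to 1.371 and the share of calls higher in lung from 56.9% to 83.2%. Called in 1 direction under both were 13 genes. Tk1 was the most uneven, with a log2 difference of -6.75 with scaling factors and -5.58 with library totals. Mcm3 (-3.19 and -2.04) and Rrm2 (-2.28 and -1.13) were also lower in lung, as were Rpa2, Mcm6, Mcm5, Rfc5, Pole and Cdt1. E2f1 (0.78 and 1.93), Pola1 (0.69 and 1.85), Gins1 (0.67 and 1.82) and Dut (0.45 and 1.61) were higher in lung. For the other genes no direction is given.

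Other genes of the pathway, 116 in lists that hold none of the 38, were counted in the same way. At 1 day 44 of 111 tested rose and 4 fell, beside 8.39% of all genes that rose and 5.72% that fell. Of these, 15 rose among 16 mitosis genes, such as Mki67, which marks cells in cycle and went from 18.3 ± 3.19 to 48.1 ± 5.31 CPM (SD, n = 6 in each group, edgeR adjusted p = 2.0e-06), and Cenpf, a kinetochore gene (log2 1.14, edgeR adjusted p = 7.8e-07). Outside mitosis 29 of 95 rose. Origin and helicase partners rose 7 of 14, led by Ticrr, which helps load Cdc45 (log2 1.52, edgeR adjusted p = 0.00010). Fork protection and repair genes rose 6 of 14, among them Brca1 (0.90), and of 28 genes of the E2F family and the G1 to S transition 9 rose and 3 fell. Those that rose included Myc, a growth regulator (0.61, edgeR adjusted p = 2.2e-06), the late E2F repressors E2f7 and E2f8 (1.04), and the cyclins Ccna2 (1.27) and Ccne1 (1.01). Those that fell were the cell cycle brakes Cdkn1c (-0.43), Rbl2 (-0.14) and Cdkn1b (-0.13), while Rbl1 of the same list rose (0.51, edgeR adjusted p = 0.0045). Slc29a1, a nucleoside transporter, also fell (-0.17). Of 15 further fork enzymes, among them accessory subunits of polymerases, Rpa and ribonuclease H2, 0 passed the test. The list is too short to set 0 apart from the 8.39% and 5.72% of all genes.

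At 6 months 26 of 110 rose and 2 fell, beside 9.84% of all genes that rose and 6.38% that fell. The mitosis genes again rose 15 of 16, among them Cdk1, the mitotic kinase (log2 0.89, edgeR adjusted p = 0.00015), Bub1b (1.33), Kif11 (0.72) and Tpx2 (0.86), while 11 of 94 outside mitosis rose, near the share of all genes. These were 0 of 13 fork protection genes, 1 of 14 origin and helicase partners (Ticrr, 0.97), 6 of 28 E2F and G1 to S genes and 4 in the other lists. The E2F and G1 to S genes were E2f7, E2f8, Ccne1, Ccne2, Ccna2 and Cdc25a, and Cdkn1b (-0.22) and Rbl2 (-0.16) were the pair that fell. In blood 1 of 104 passed at 1 day, Tk2, the mitochondrial thymidine kinase (log2 0.35, edgeR adjusted p = 0.016), a share near the 1.19% higher and 0.18% lower of all genes, and 0 of 96 at 6 months.

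Markers of cell types moved in the same lungs, where 8.39% of all genes rose and 5.72% fell at 1 day. The shares at 6 months were 9.84% and 6.38%, and in blood at 1 day 1.19% and 0.18%. At 1 day 5 of the 7 neutrophil markers tested rose and 1 fell, with a summed level of 104 to 230 CPM in air and 278 to 638 after silica. Macrophage markers rose 4 of 6 with 1 that fell (381 to 578 CPM in air, 446 to 610 after silica), endothelial markers fell 5 of 8 (3433 to 3796 in air, 3039 to 3387 after silica) and alveolar type 1 markers fell 5 of 6 (5422 to 6309 and 4846 to 5085). At 6 months macrophage markers rose 6 of 6 (408 to 492 CPM in air, 568 to 743 after silica), alveolar type 2 markers 7 of 8 (21546 to 27163 and 30687 to 37810) and neutrophil markers 2 of 7 (198 to 305 and 404 to 592), while endothelial markers fell 8 of 8. Alveolar type 1 markers then summed to 5372 to 5938 CPM in air and 4662 to 5289 after silica. Monocyte markers summed to 23828 to 29362 CPM in air and 24017 to 32738 after silica at 1 day. At 6 months their sums were 22500 to 29687 and 33388 to 45828. Fibroblast sums overlapped at both times, at 1291 to 1368 and 1122 to 1296 CPM, then 1152 to 1199 and 1025 to 1164. The part of these in the rise of the replication genes was not tested. Granulocyte precursors, which divide in marrow, were near 0 in lung: none of their markers was high enough to test, and Ctsg and Elane reached at most 2 counts in a lung library. In blood at 1 day neutrophil markers rose 4 of 7 (2095 to 2695 CPM in air, 3430 to 4198 after silica) and none of the 11 erythroid markers passed. The 0 replication genes called there are near the shares of all genes. Whether any of these levels bears on the replication genes was not tested.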

How the data were processed

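Libraries of lung and whole blood RNA were grouped by the treatment, tissue and time in the labels. The authors deposited 1 table of estimated counts per tissue and time, with 1 column per library and 0 unmatched columns. Tools listed in the submitters' processing notes, whose roles are not given in the sources used here, were Salmon 1.10.1, STAR 2.6.1d, Trim Galore 0.6.7, cutadapt 3.4 and bcl2fastq 2.19, beside the genome build Rnor_6.0, and the labels' protocols name a stranded polyadenylated RNA kit. Salmon's estimates can split reads between similar genes.

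From these values, counts were rounded, genes filtered with filterByExpr (minimum count 10), scaled by TMM factors and tested with the edgeR (4.0.16) quasi-likelihood test in R 4.3.3, silica against air, with p-values adjusted by Benjamini-Hochberg over all genes and a threshold of 0.05. Interactions of treatment with time or tissue used the same settings. CPM are counts over the TMM-scaled library size. Alternatives used DESeq2 (1.42.0), limma-voom (3.58.1), a test against a 1.5-fold change, other scaling factors, other filters, globin, erythroid and mitochondrial genes left out, all groups of a tissue in 1 fit, 1 surrogate variable (sva 3.50.0), gene models of a name summed, each library left out, and the title number as a replicate block. Library totals alone were added after seeing the data. The fitting steps were tested on simulated data.

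The members and lists were chosen with earlier results of these data known. Library values are printed for the 2 genes of each role (1 for E2F) with the smallest p in lung at 1 day, for Mcm2, Pcna, Rrm2, Tk1, Tyms and E2f1, and for the 4 genes with the smallest p in each other comparison. Other genes of the 38 are given by fold or range. From the other pathway genes the 5 with the smallest p and those against the majority come under the rule, and others named were chosen after their values were seen. Libraries are named by the number in their titles.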

Additional observations from a re-analysis of the deposited data

Results flagged for a closer look

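Some libraries stood apart within their group by Dixon's criterion, 5 in 90 groups of values tested, where chance gives about 1 in 20. They were Pcna in the air lung library 41 at 1 day (53.1 CPM, low), Tk1 in the air lung library 38 at 1 day (7.13 CPM, high), Rrm2 in the silica lung library 47 at 1 day (23.9 CPM, low), Tk1 in the silica lung library 58 at 6 months (14.5 CPM, high) and Pcna in the silica blood library 46 at 1 day (46.7 CPM, high). Without library 58 the Tk1 change in lung at 6 months went from log2 0.59 to 0.45 and kept its call (edgeR adjusted p = 0.036). Without library 46 the Pcna value in blood went from log2 0.10 to 0.04.

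A difference in silica effect between times passed the interaction test for Tyms in lung (log2 difference -0.55, 6 months minus 1 day). Between tissues at 1 day, the effect in blood minus that in lung was -1.45 for Cdc6, -0.65 for Cdt1, -0.41 for Mcm2, -0.52 for Mcm3, -0.52 for Mcm4, -1.45 for Mcm5, -0.64 for Mcm6, -0.83 for Pole, -1.26 for Chaf1b, -1.45 for Uhrf1, -1.08 for Rrm2 and -1.11 for Tk1. At 6 months it was -1.41 for Cdc6, -0.39 for Mcm3, -0.99 for Uhrf1 and -0.81 for Rrm2.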

How the results depend on the processing

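The test against a 1.5-fold change called 6 of the 28 genes in lung at 1 day and 2 of the 13 at 6 months. The change of effect with time in lung was called for 2 genes with DESeq2, 2 with library totals alone and 0 without the low-count filter, and for 0 to 2 when each library was left out. The tissue difference at 6 months was called for 1 gene with the replicate block and 1 with library totals alone, and for 2 to 5 when each library was left out. Lung and blood libraries share numbers in their titles that no label calls an animal. Deviations of same-numbered libraries correlated by -0.0862 to 0.151 in 12 pairs at 1 day (2 over 0.1) and by -0.0943 to 0.0913 in 9 pairs at 6 months (0 over 0.1), and 4 of 12 and 2 of 9 lung libraries correlated best with their own number. These correlations cannot decide whether the numbers pair the samples, since lung and blood of 1 rat need not vary together. The main tests used no pairing. The replicate block called 10 genes for the tissue difference at 1 day and 31 for air lung against air blood. When each library was left out, 24 to 28 genes were called in lung at 1 day, 10 to 14 at 6 months, 0 in blood at both times, 11 to 14 for the tissue difference at 1 day and 29 to 33 for air lung against air blood. In air lung against air blood, 6 genes called lower in lung with scaling factors were called higher with library totals alone. No called difference between silica and air changed direction under the alternatives run. Depth limits the lowest genes: Orc1 and Gins1 in blood at both times and Gins3 and Chaf1b in blood at 6 months were not tested, so a change there was not detectable at this depth.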
